A study of Mus musculus with 20 samples.

Results

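The respiratory chain and ATP synthase of the mitochondrial inner membrane are built from proteins of 2 genomes, and 92 of their genes were followed here in mouse liver and fat. Members were all genes whose symbols name subunits of complex I (Nduf), complex III (Uqcr), cytochrome c oxidase (complex IV, Cox) or ATP synthase (complex V, Atp5), together with the 13 protein genes of mitochondrial DNA. This gave 13 mitochondrially encoded and 79 nuclear genes of 20996 genes in the count tables, of which 88 were in the liver table and 92 in the fat table. Complex I contributed 7 mitochondrial and 37 nuclear members, complex III 1 and 8, complex IV 3 and 17, and complex V 2 and 17. The files carry no symbols for the mitochondrial genes, which were therefore matched by Ensembl ID, and a few subunits outside these name patterns (Cox4i1, Cox4i2, Cyc1, Ndufab1) were read as other genes of the pathway. Ndufa4 and Ndufa4l2 were placed with complex IV, where the Ndufa4 protein is now known to sit.

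Complexes I, III and IV pass electrons from NADH to oxygen and pump protons out of the matrix, and complex V uses the returning protons to make ATP. Mitochondrial DNA encodes the most hydrophobic core subunits and is read as long transcripts that are cut into shorter messages, while the nuclear subunits are transcribed one gene at a time and imported as proteins. Hepatocytes are rich in mitochondria, whereas white adipocytes have few around their lipid droplet.

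Poly-A RNA was sequenced in 20 libraries, 5 in each of 4 groups, from male mice 2 months old: epididymal white adipose tissue (eWAT, the fat pad lying against the epididymis) of IR 4A mice, eWAT of wild-type (WT) mice, liver of IR 4A mice and liver of WT mice. IR 4A mice carry an insulin receptor changed at the site through which it binds MAD2, and the study asked how MAD2-dependent uptake of the receptor from the cell surface bears on metabolism. All groups share the sex, the age and, per the labels' protocols, a single round of library preparation, and no diet, fasting state, strain background or line of origin is given in the labels. The labels number the libraries but not the animals. A p-value here therefore reflects how libraries vary, and some of that may be technical. Bulk tissue also means that fewer cells of a type and less RNA per cell cannot be told apart.

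Some libraries stood apart. Over genes in both tables, library totals ran from 11883146 to 20952478 counts in eWAT and from 17974190 to 24218236 in liver. eWAT libraries held epididymis transcripts, whose 12 markers summed to 32127 to 45184 CPM (counts scaled to a common library size, within the tissue) in eWAT IR 4A and 5228 to 37754 in eWAT WT, with eWAT WT 4 lowest. The 12 sperm markers summed to 141 to 3064 CPM in eWAT IR 4A and 164 to 6508 in eWAT WT, and 4 libraries (IR 4A 3, IR 4A 4, WT 1 and WT 2) were far above the rest. White adipocyte markers, which the label predicts, were present in every eWAT library at 3365 to 20169 CPM in IR 4A and 11437 to 38565 CPM in WT, and hepatocyte markers in every liver library at 81699 to 93431 CPM in IR 4A and 81059.9 to 93274 CPM in WT. In liver, WT 1 and WT 3 stood apart in the acute phase gene Saa2, with 0.765% and 0.433% of counts, while the 5 IR 4A livers had 0.00111% to 0.0206% and the other WT livers 0.00448% to 0.0174%. Liver WT 4 held 8.87% of its counts in the ribosomal RNA gene Rn18s, against 0.341% to 0.621% in IR 4A liver.

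The 13 mitochondrial genes made up a larger share of counts than the nuclear members in every library. Their share was 12.3, 10.9, 10.9, 9.55 and 11.6% in eWAT IR 4A, 9.43, 8.41, 10.4, 12.3 and 9.91% in eWAT WT, 14.4, 13.9, 14.5, 15.3 and 14.7% in liver IR 4A and 13.1, 14.3, 11.9, 14.9 and 13.7% in liver WT. The group means were 11.04 ± 1.03%, 10.1 ± 1.42%, 14.5 ± 0.502% and 13.6 ± 1.15% in that order (SD, n = 5 each). The genotypes overlapped in both tissues, and the liver libraries lay above the eWAT range except liver WT 3. Nuclear members took 0.640 ± 0.0412%, 0.624 ± 0.0668%, 0.626 ± 0.0234% and 0.550 ± 0.0600% of counts in the same groups, so that all 4 groups overlapped.

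The tissues separated by the balance of the 2 genomes. Counts of the 13 mitochondrial genes divided by counts of the nuclear members gave 17.8, 17.2, 17.4, 16.3 and 17.4 in eWAT IR 4A and 15.1, 15.8, 16.4, 17.1 and 16.3 in eWAT WT. In liver IR 4A the same ratio was 23.2, 23.7, 22.4, 23.8 and 23.1, and in liver WT it was 28.0, 22.7, 22.5, 27.3 and 23.8. No eWAT library reached the lowest liver library, and within a tissue the genotypes overlapped. By complex, the ratio for complex I was 18.4 to 21.2 in eWAT IR 4A and 17.8 to 21.4 in eWAT WT, against 32.4 to 34.4 in liver IR 4A and 30.8 to 40.5 in liver WT. Complex IV behaved alike, with 26.5 to 30.7 and 26.4 to 32.1 in the eWAT groups against 48.4 to 51.2 and 43.5 to 57.5 in the liver groups. For complex V the ratios were smaller and closer, at 6.38 to 7.10 and 5.60 to 6.75 in eWAT IR 4A and WT and 7.39 to 8.04 and 7.54 to 9.55 in liver IR 4A and WT, still without overlap between tissues. Complex III gave 20.2 to 21.6, 16.8 to 21.1, 22.3 to 24.4 and 22.4 to 27.3 in those groups. These are ratios of counts, which depend on transcript length and poly-A capture, not ratios of molecules. Any reads assigned to annotated near-identical copies of the mitochondrial genes are not in these sums.

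**Figure D1:**
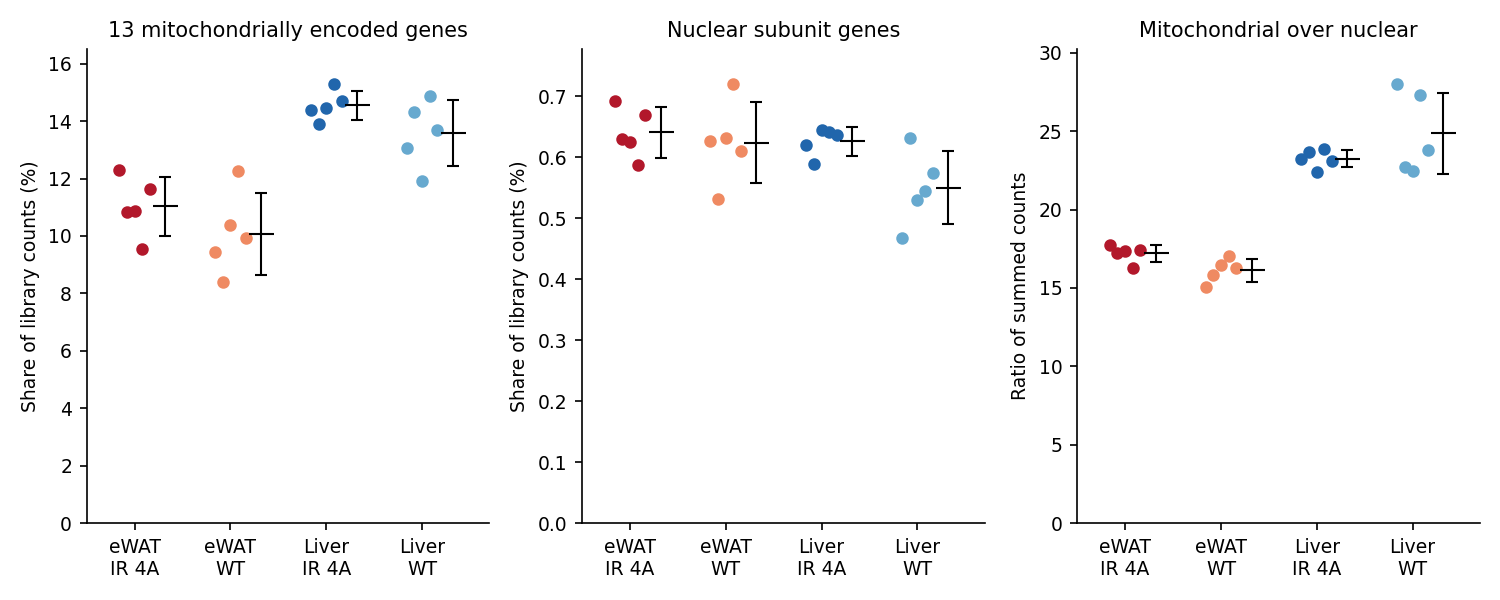
Share of library counts (%) taken by the 13 mitochondrially encoded genes (left) and the nuclear subunit genes (middle), and the ratio of their summed counts (right), in eWAT IR 4A, eWAT WT, liver IR 4A and liver WT. Points are libraries and the bar beside them is the mean ± SD of 5; in the right panel eWAT libraries lie between 15.1 and 17.8 and liver libraries between 22.4 and 28.0, while in the middle panel all groups overlap.

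Within the mitochondrial messages, mt-Nd2, a membrane subunit of complex I, differed most in its share between tissues. It held 6.36, 6.02, 6.08, 5.996 and 6.66% of the counts of the 13 genes in eWAT IR 4A and 5.68, 5.92, 6.18, 6.49 and 5.82% in eWAT WT, against 10.8, 10.8, 11.3, 11.7 and 10.9% in liver IR 4A and 11.8, 10.5, 11.99, 11.2 and 11.97% in liver WT. Every liver library was above every eWAT library, and the genotypes overlapped in each tissue for this gene. Other shares were nearer to each other: mt-Co1, the catalytic subunit of complex IV, averaged 21.7%, 23.2%, 21.7% and 20.7% in eWAT IR 4A, eWAT WT, liver IR 4A and liver WT. For mt-Cytb, the mitochondrial subunit of complex III, the means were 13.6%, 13.4%, 13.8% and 13.2%. The share of mt-Nd1, next to mt-Nd2 on the same strand, ran the other way, with 9.49% and 8.60% in the eWAT groups and 7.30% and 7.41% in the liver groups. Between the eWAT genotypes the shares did not overlap for mt-Nd1, with 9.18% to 9.90% in IR 4A and 7.87% to 9.02% in WT, or for mt-Nd5, with 8.46% to 9.20% in IR 4A and 9.49% to 10.04% in WT. The other 11 shares overlapped in eWAT, all 13 overlapped in liver, and no share was tested. The shares are parts of 1 total and do not move independently. In CPM both genes overlapped between the eWAT genotypes (edgeR adjusted p = 0.562 for mt-Nd1 and 0.883 for mt-Nd5). Of all genes, 2.52% lay above and 3.22% below without overlap in CPM. By the search for near-identical copies among annotated transcripts, mt-Nd1, mt-Nd2, mt-Nd6, mt-Cytb and mt-Atp8 had none, while the other 8 had at least 1.

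Copies and overlaps set limits on single mitochondrial genes, and copies also on sums over them. Gm28661, an annotated nuclear copy, is identical to mt-Co2 (a copper-binding subunit of complex IV) over 681 bases, and in the authors' deposited table its mean signal was 56021 in eWAT and 69461 in liver, beside 114419 and 147549 for mt-Co2. Reads of mt-Co2 may thus be divided between the 2 entries in a way that differs between libraries. mt-Atp8 and mt-Atp6, both of the membrane part of ATP synthase, share 43 bases at chrM:7927-7969 (GRCm38, + strand), which are 21.1% of mt-Atp8 and 6.31% of mt-Atp6. These bases are shown because estimated counts must divide reads from them between the genes, with the start codon of mt-Atp6 in capitals.
mt-Atp8 and mt-Atp6 overlap: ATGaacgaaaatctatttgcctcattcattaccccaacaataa

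Per kilobase of transcript, on the scale common to both tissues, the median mitochondrial gene stood at 5992 CPM in eWAT IR 4A, 5324 in eWAT WT, 17676 in liver IR 4A and 19318 in liver WT. The median nuclear member stood at 55.0, 50.1, 109 and 108 CPM per kilobase in those groups. Among nuclear members, complex I had the lowest median of the 4 complexes in every group (35.2, 31.8, 73.1 and 74.3 CPM per kilobase) and complex V the highest (84.1, 74.7, 185 and 178). mt-Atp6, through which protons pass, led the mitochondrial genes per kilobase with 12107, 11157, 40877 and 40538 CPM in eWAT IR 4A, eWAT WT, liver IR 4A and liver WT, followed by mt-Co1. mt-Nd6 was lowest, at 53.0, 51.2, 202 and 129 CPM per kilobase. It is the only one of the 13 on the opposite strand, and in human cells its message is known to lack a poly-A tail; these libraries were made by poly-A capture. The part of that capture in its level was not tested. The nuclear member highest per kilobase was Cox6c (complex IV) in eWAT IR 4A with 256 CPM, Cox8a (complex IV) in eWAT WT with 228 CPM, and Atp5b, the catalytic beta subunit of ATP synthase, in liver IR 4A with 579 CPM and liver WT with 524 CPM.

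In eWAT, no member passed edgeR's test between IR 4A and WT. None of the 91 tested members passed an adjusted p of 0.05, against 0.0121% of all 16476 genes (quasi-likelihood test of edgeR, adjusted by Benjamini-Hochberg over all genes; fold changes are IR 4A over WT on a log2 scale with their standard error, SE). At an unadjusted p under 0.05, 10 members were higher and 1 lower in IR 4A, where 6.63% of all genes were higher and 9.24% lower. By direction alone, 62 of 91 members had a positive log2 fold change, 11 of 13 mitochondrial and 51 of 78 nuclear, beside 40.1% of all genes. The median log2 fold change was 0.11 over mitochondrial and 0.06 over nuclear members, beside -0.08 over all genes. By complex the nuclear medians were 0.08 for I, -0.03 for III, 0.05 for IV and 0.02 for V, and the mitochondrial ones 0.11, 0.10, 0.16 and 0.06. Mitochondrial members ran from -0.06 (mt-Nd5) to 0.36 (mt-Nd3, SE 0.19, edgeR adjusted p = 0.383).

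The c-ring genes of ATP synthase, which encode the same mature protein behind different import sequences, pointed in different directions in eWAT. Atp5g1 had 72.2, 90.5, 85.0, 78.6 and 77.6 CPM in eWAT IR 4A and 62.5, 38.5, 53.8, 39.4 and 74.3 CPM in eWAT WT. Only WT 5 lay within the IR 4A range, and the log2 fold change was 0.59 (SE 0.18, edgeR adjusted p = 0.228). Atp5g2 had 2.72, 3.21, 2.21, 3.12 and 2.35 CPM in IR 4A and 3.44, 4.08, 4.33, 4.43 and 4.67 CPM in WT. Its groups did not overlap, with every IR 4A library lower, and its log2 fold change was -0.62 (SE 0.17, edgeR adjusted p = 0.207). Atp5g3 overlapped widely, with 80.2 to 129.6 CPM in IR 4A and 61.9 to 152 CPM in WT and a log2 fold change of 0.03 (SE 0.22). Reads of Atp5g1 and Atp5g2 are uncertain, since Atp5g1 matches the copy Gm10039 at 99.757% over 411 bases and Atp5g2 matches Gm10175 and Gm10231 without a mismatch.

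Atp5mpl, a small ATP synthase subunit, had 33.6, 31.5, 33.7, 28.2 and 33.8 CPM in IR 4A and 27.1, 23.1, 27.4, 24.9 and 26.4 CPM in WT. Its groups did not overlap, with IR 4A higher (log2 fold change 0.32, SE 0.09, edgeR adjusted p = 0.203). Atp5e, the epsilon subunit of the ATP synthase stalk, likewise had 30.9, 32.01, 33.2, 30.2 and 28.5 CPM in IR 4A and 26.4, 18.4, 25.9, 25.8 and 21.7 CPM in WT without overlap (log2 fold change 0.39, SE 0.11, edgeR adjusted p = 0.218). In all, 5 members had every IR 4A library above every WT library and 1 had every one below, beside 2.52% and 3.22% of all genes. The other 3 above were Ndufa6, Ndufa7 and Ndufb11, accessory subunits of complex I named here after their values were seen. Ndufa1 and Ndufa13, accessory subunits of complex I, had log2 fold changes of 0.38 (SE 0.11) and 0.23 (SE 0.07), with edgeR adjusted p of 0.209 and 0.231. Cox6c of complex IV had 0.26 (SE 0.07, edgeR adjusted p = 0.214). In complex III, Uqcrh, the hinge protein, had 0.21 (SE 0.09) and Uqcrc2, a core protein, -0.21 (SE 0.13), with edgeR adjusted p of 0.295 and 0.4656.

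Transcript length moved with these differences. Nuclear members with transcripts under 700 bases had a median log2 fold change of 0.12 in eWAT, with 30 of 37 positive, and those of 700 bases or more had 0.02, with 21 of 41 positive. All 619 genes under 700 bases had the same median of 0.12, and the longer genes -0.09. Marker levels also differed between the eWAT groups: fibroblast markers summed to 734 to 2037 CPM in IR 4A and 2661 to 6831 in WT, macrophage markers to 157 to 359 and 453 to 1367, and all 12 epididymis markers had a positive log2 fold change. The part of length or of cell makeup in the values of the members was not tested. DESeq2 called 9 members in eWAT, where it called 3.17% of all genes as higher and 4.13% as lower: Atp5g2 was lower, and Atp5mpl, Cox6c, Ndufa13, Ndufa1, Atp5e, Atp5g1, Ndufa7 and Ndufa11 were higher. An edgeR fit of all 20 libraries called 5 of these as higher, Atp5mpl, Atp5g1, Ndufa1, Atp5e and Cox6c (adjusted p 0.0313 to 0.0451), and called 0.517% of all genes as higher and 1.49% as lower. Without the 4 libraries highest in sperm markers, none passed and the medians were 0.13 over mitochondrial and 0.08 over nuclear members.

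**Figure D2:**
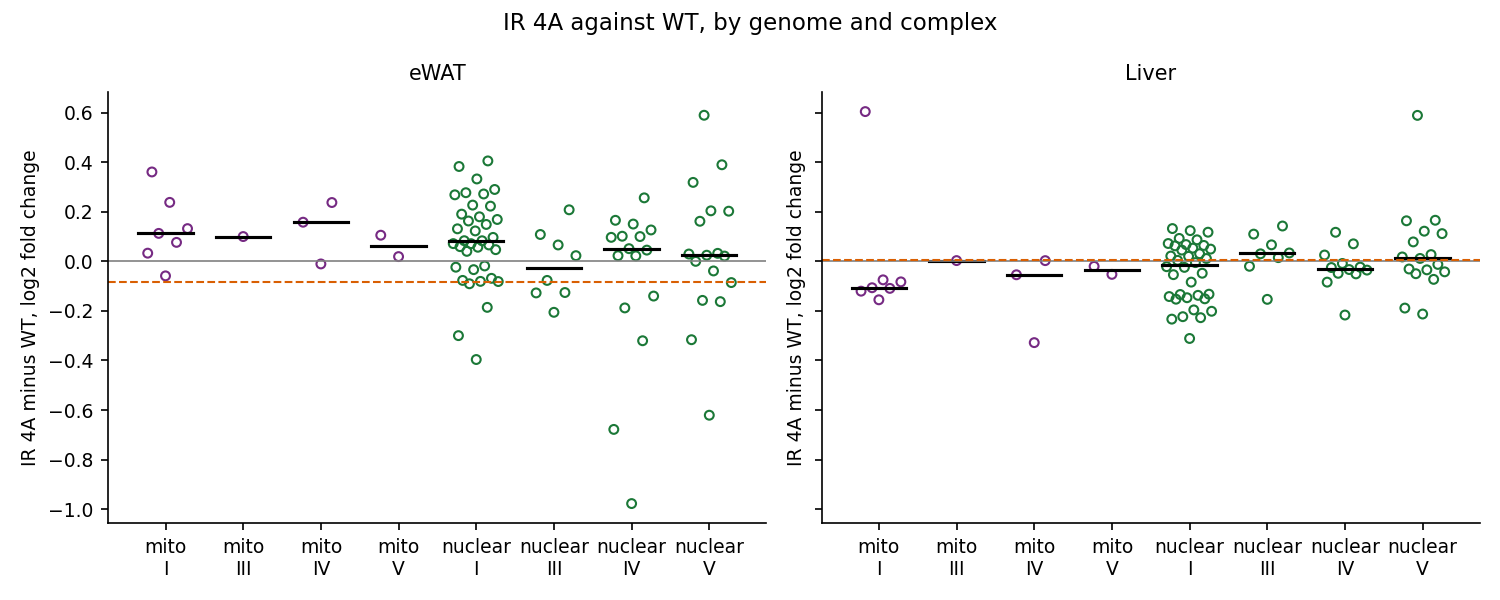
Log2 fold change of each tested member, IR 4A minus WT, in eWAT (left) and liver (right), by genome (purple mitochondrial, green nuclear) and complex. Open circles did not pass an adjusted p of 0.05 (none did), black bars are medians, the dashed orange line is the median of all genes (-0.08 in eWAT, 0.00 in liver); the eWAT points spread wider than the liver points.

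In liver, too, no member passed edgeR's test between IR 4A and WT. All 86 tested members missed an adjusted p of 0.05, which was passed by 0.00805% of all 12421 genes (edgeR quasi-likelihood test, Benjamini-Hochberg adjustment), and at an unadjusted p under 0.05 none was higher and 8 were lower in IR 4A, where 8.6% of all genes were higher and 9.48% lower. The median log2 fold change was -0.07 over mitochondrial, -0.01 over nuclear and 0.00 over all genes. Both member medians were positive when counts were divided by library totals alone (0.09 and 0.15), a scaling that shifted the median of all genes by 0.16. Nuclear medians by complex ran from -0.03 (IV) to 0.03 (III). Without WT 1 and WT 3 none passed, and the medians were -0.14 over mitochondrial and -0.09 over nuclear members. DESeq2 called none, where it called 1.63% of all genes as higher and 2.0% as lower.

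Ndufa3, an accessory subunit of complex I, had the smallest p in liver, with 24.9, 24.1, 25.7, 27.9 and 25.6 CPM in liver IR 4A and 28.4, 30.3, 28.4, 30.6 and 31.9 CPM in liver WT. Its groups did not overlap, with IR 4A lower, as in 1.83% of all genes (log2 fold change -0.22, SE 0.07, edgeR adjusted p = 0.154). Ndufa8, another accessory subunit, had 48.9 to 53.5 CPM in IR 4A and 51.2 to 62.6 CPM in WT (log2 fold change -0.20, SE 0.07, edgeR adjusted p = 0.185). Cox6a1, the non-muscle form of a complex IV subunit, had 108 to 119 CPM in IR 4A and 115 to 148 CPM in WT (log2 fold change -0.22, SE 0.08, edgeR adjusted p = 0.187). Both overlapped in part. In complex III, Uqcrq had -0.15 (SE 0.07) and Uqcrb, the ubiquinone-binding protein, 0.14 (SE 0.09), with edgeR adjusted p of 0.291 and 0.414. In the authors' deposited tables no member reached an adjusted p of 0.05 in either tissue, where 2.5% of liver and 2.7% of eWAT entries with an adjusted p did, the lowest member values being 0.0522 for Ndufa3 in liver and 0.0529 for Atp5g2 in eWAT.

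mt-Nd6, a complex I subunit, and mt-Co2 had the widest liver differences among the 13 mitochondrial genes. mt-Nd6 stood at 50.7, 56.3, 68.7, 74.6 and 60.3 CPM in liver IR 4A and 37.0, 30.1, 20.4, 89.4 and 27.9 CPM in liver WT. The other 4 WT libraries were below all IR 4A libraries and WT 4, the library high in Rn18s, was above them all. The log2 fold change was 0.60 (SE 0.33, edgeR adjusted p = 0.350), and without WT 4 it was 1.11 with an edgeR adjusted p of 0.0549; leaving out other single libraries gave adjusted p up to 0.547. mt-Co2 stood at 6357, 6008, 6425, 7435 and 6556 CPM in liver IR 4A and 10005, 8582, 4561, 10278 and 7729 CPM in liver WT, where only WT 3 was below the IR 4A libraries (log2 fold change -0.33, SE 0.19, edgeR adjusted p = 0.390). In eWAT, mt-Nd6 overlapped between IR 4A (31.1 to 48.3 CPM) and WT (27.1 to 46.7 CPM), as did mt-Co2 (5579.7 to 9013 and 2636 to 8601 CPM). The part of the ribosomal RNA in liver WT 4 or of the copy of mt-Co2 in these values was not tested.

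Whether the effect of IR 4A differed between tissues was tested as the log2 change in eWAT minus that in liver. Of 88 members, 2 passed, both higher, where 2.41% of all genes passed (0.735% higher and 1.67% lower): Atp5e with 0.56 (SE 0.14, edgeR adjusted p = 0.0438) and Atp5g1 with 0.78 (SE 0.20, edgeR adjusted p = 0.0494). Next, without passing, came Ndufa3 with 0.48 (SE 0.13, edgeR adjusted p = 0.0582). Atp5e in liver had 25.5, 19.2, 22.2, 19.6 and 21.3 CPM in IR 4A and 23.1, 26.9, 24.6, 23.4 and 25.01 CPM in WT, overlapping only through IR 4A 1 (-0.19 on the log2 scale, SE 0.09, edgeR adjusted p = 0.285). Atp5g1 in liver had 50.9, 47.2, 50.8, 50.6 and 50.3 CPM in IR 4A and 61.9, 63.8, 49.0, 55.8 and 58.9 CPM in WT, overlapping only through WT 3 (log2 fold change -0.21, SE 0.08, edgeR adjusted p = 0.196). In the edgeR fits within 1 tissue neither gene passed, while DESeq2 and the edgeR fit of all 20 libraries called both in eWAT, as given above. The eWAT values lay in the other direction from the liver values.

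Both interaction calls were marginal. Leaving out 1 library at a time, Atp5e passed in 7 of 20 fits (without liver IR 4A 1, eWAT WT 1, 2, 4 or 5, or eWAT IR 4A 1 or 5; adjusted p 0.0209 to 0.0892 over the 20) and Atp5g1 in 3 (without liver IR 4A 1, eWAT WT 5 or eWAT IR 4A 1; adjusted p 0.0146 to 0.0951). Under library totals the edgeR adjusted p was 0.0767 for Atp5e and 0.0689 for Atp5g1. With 1 library left out, 7 other members passed in at least 1 fit. Ndufa7 passed in 3, without liver WT 3, liver IR 4A 1 or eWAT WT 5 (edgeR adjusted p = 0.0399, 0.0368 and 0.0425), and Ndufa3 in 2, without eWAT WT 4 or WT 5 (edgeR adjusted p = 0.0409 and 0.0348). Passing once each were mt-Nd6 without liver WT 4 (log2 difference -1.08, edgeR adjusted p = 0.0437), Ndufa8 and Ndufb7 without eWAT WT 4 (0.0361 and 0.0384), Ndufa11 without eWAT WT 5 (0.0398) and Ndufa1 without eWAT IR 4A 1 (0.0446). DESeq2 called 11 members, all higher (Atp5g1, Atp5e, Atp5mpl, Cox6c and 7 accessory subunits of complex I), where it called 4.1% of all genes as higher and 4.56% as lower. Here too nuclear members with short transcripts were higher: 27 of 35 under 700 bases were positive (median 0.13) and 18 of 40 longer ones (median -0.03), while all genes had medians of 0.13 under 700 bases and -0.13 above. The part of transcript length in the 2 calls was not tested.

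**Figure D3:**
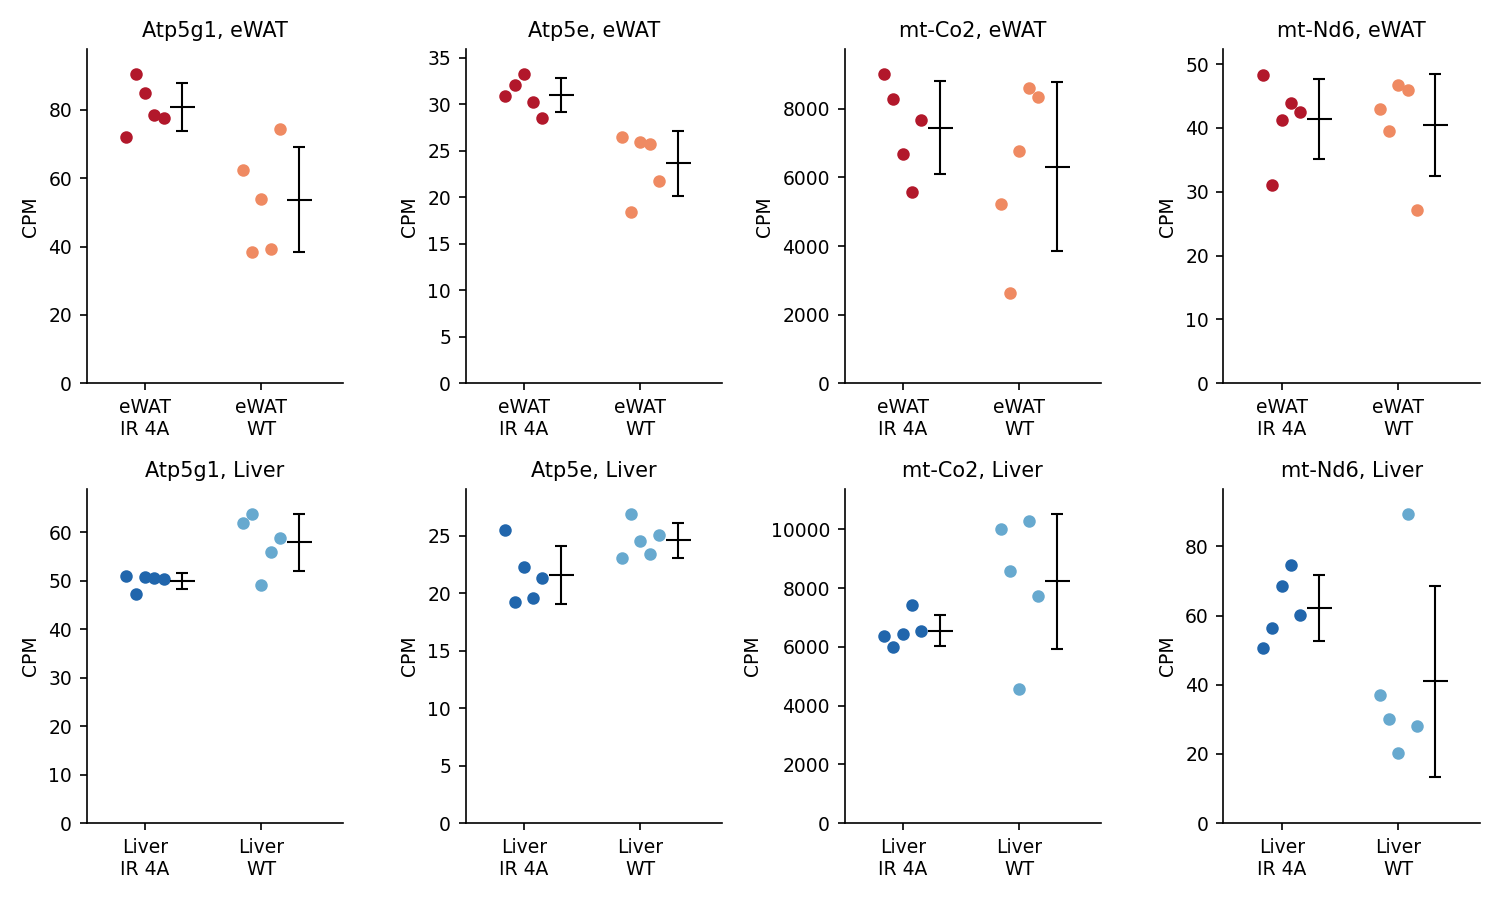
CPM of Atp5g1, Atp5e, mt-Co2 and mt-Nd6 in IR 4A (left of each panel) and WT, in eWAT (top) and liver (bottom); points are libraries, bars the mean ± SD of 5. Atp5e lies higher in IR 4A than in WT in eWAT (28.5 to 33.2 against 18.4 to 26.4), and in liver mt-Nd6 of WT 4 (89.4) lies above all other libraries.

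Between tissues, nearly all members were lower in eWAT than in liver relative to other genes under TMM scaling (edgeR's trimmed mean of M-values, which sets the bulk of genes equal between libraries), a direction that turned for most nuclear members under library totals. In IR 4A mice 79 of 88 members were lower and 2 higher (75.3% of all 14696 genes passed, 34.8% as lower and 40.5% as higher), and in WT mice 82 were lower and 2 higher (77.1% passed, 33.9% as lower and 43.2% as higher; edgeR quasi-likelihood test, Benjamini-Hochberg adjustment). Of these, 78 were lower and 2 higher in both genotypes; Cox6b2, 1 of the 2 higher, and Cox7a1, which did not pass, entered the fit only through their eWAT counts. Median log2 fold changes were -1.68 over mitochondrial and -1.06 over nuclear members in IR 4A, beside 0.12 over all genes, and -1.78 and -1.18 in WT, beside 0.19. Under library totals the nuclear medians turned to 0.37 in IR 4A and 0.30 in WT while the mitochondrial ones were -0.25 and -0.29, and the median of all genes moved to 1.55 and 1.69. Under that scaling 45 members were higher and 13 lower in IR 4A, and 45 higher and 9 lower in WT (79.7% and 82.8% of all genes were called higher, 10.8% and 9.64% lower). The TMM factors were 1.48 to 1.81 in eWAT and 0.548 to 0.647 in liver, so each tissue value holds relative to the other genes and not per cell.

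The complexes were not equal in the tissue contrast. Nuclear medians for complexes I, III, IV and V were -0.94, -1.73, -0.98 and -1.28 in IR 4A and -1.08, -1.48, -1.10 and -1.32 in WT, so complex III was lowest in both; under library totals they were 0.50, -0.29, 0.45 and 0.16 in IR 4A and 0.41, 0.01, 0.40 and 0.18 in WT. Mitochondrial medians were -1.66, -1.70, -1.51 and -1.77 in IR 4A and -1.86, -1.78, -1.71 and -1.85 in WT. All 4 mitochondrial medians stayed negative under library totals in both genotypes. The difference between complexes was not tested.

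mt-Nd2 was the member furthest below liver in both genotypes. On the scale common to both tissues it had 5186, 4415, 4217, 3627 and 5164 CPM in eWAT IR 4A and 25189, 24218, 25284, 28396 and 25871 CPM in liver IR 4A. In WT it had 3423, 3395, 4185, 5541 and 3883 CPM in eWAT and 28481, 25302, 23779.8, 29749.9 and 28482 CPM in liver. No eWAT library came near a liver library, and the log2 fold changes were -2.51 (SE 0.29) in IR 4A and -2.73 (SE 0.29) in WT (edgeR adjusted p = 1.76e-07 and 6.09e-08). mt-Nd6 had -1.93 in IR 4A and -1.33 in WT, and mt-Co2 had -1.16 and -1.71; both passed as lower in both genotypes, but under library totals neither passed, and mt-Nd6 in WT and mt-Co2 in IR 4A had a positive sign. The nuclear members Atp5a1 (the alpha subunit of ATP synthase), Atp5pb (its peripheral stalk) and Uqcrfs1 (the Rieske iron-sulfur protein of complex III) had -1.93, -1.91 and -1.89 in IR 4A.

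Uqcrq, a small subunit of complex III, gave the smallest p of any member in both genotypes; its WT fold change was among the 5 lowest, while its IR 4A values were added after they were seen. It had 43.2, 41.7, 38.1, 36.9 and 35.7 CPM in eWAT IR 4A and 136, 136, 125, 133 and 131 CPM in liver IR 4A, which on the log2 scale is -1.76 (SE 0.08, edgeR adjusted p = 2.41e-13). In WT it had 37.1, 38.7, 37.2, 43.1 and 34.6 CPM in eWAT and 136, 159, 128, 145 and 149.9 CPM in liver, or -1.91 (SE 0.08, edgeR adjusted p = 9.02e-14). The tissues were wide apart in each genotype, the libraries of a group lay close together, and the direction held under library totals. Ndufs6, a complex I subunit with a near copy (Ndufs6b, 96.6% identical), came next, also added after its values were seen, with 34.7 to 36.7 CPM in eWAT IR 4A and 96.1 to 105 CPM in liver IR 4A, and 31.99 to 36.4 CPM in eWAT WT and 83.6 to 105 CPM in liver WT. Members that passed in neither genotype were Cox8a (-0.18 in IR 4A and -0.27 in WT), Cox7a2l, a supercomplex assembly factor related to Cox7a2 (0.09 and 0.16), and Cox7a1, a heart and muscle form (0.10 and 0.40). Under library totals Cox8a and Cox7a2l passed as higher in eWAT; Cox7a1 reached the test only through eWAT. Ndufa1, Ndufa7, Ndufa11 and Ndufb7 passed as lower in WT but not in IR 4A, and Atp5g2 in IR 4A but not in WT; all 5 were positive in both genotypes under library totals. None of the 5 passed the interaction in edgeR with all libraries, where DESeq2 called Ndufa1, Ndufa7 and Ndufa11 (adjusted p = 0.0248, 0.0149 and 0.0175) and limma voom called Ndufa11 and Ndufb7 (adjusted p = 0.0352 and 0.0338). Leaving out single libraries, Atp5g2 kept its call in 6 of 20 fits, Ndufb7 also passed in IR 4A in 3, and Cox8a passed in WT without eWAT WT 4 (log2 fold change -0.57, edgeR adjusted p = 0.00365).

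**Figure D4:**
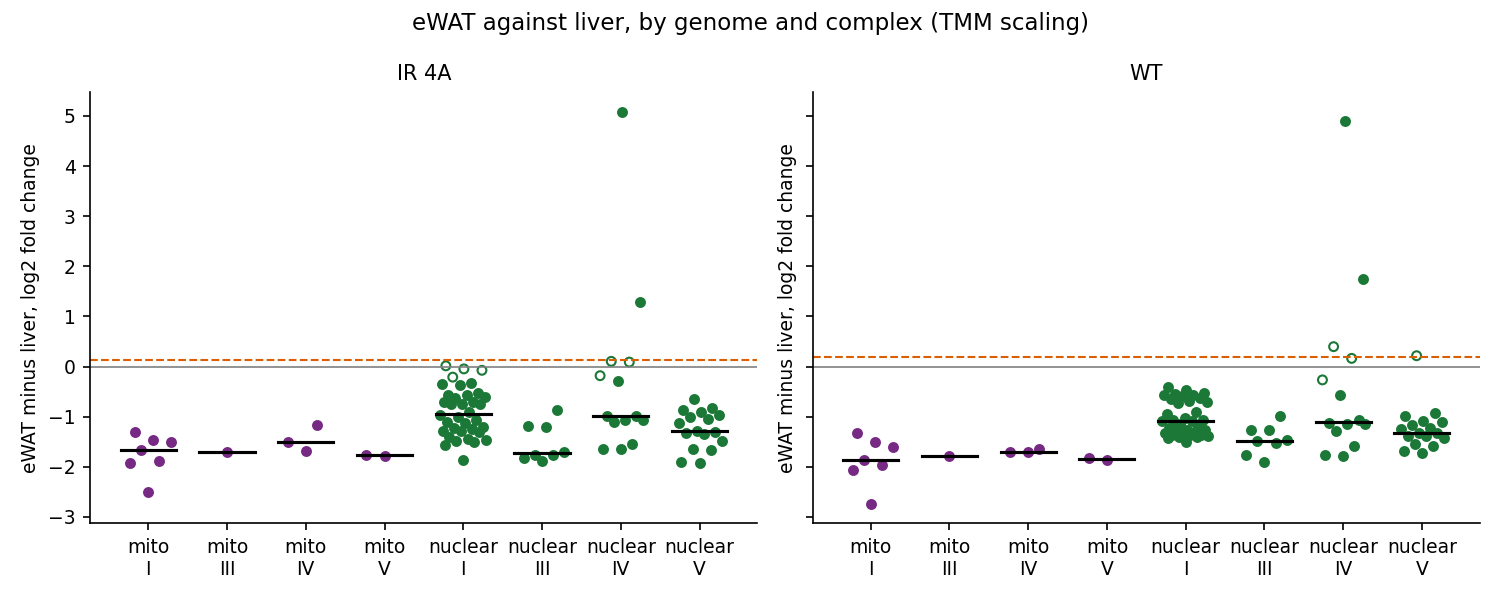
Log2 fold change of each tested member, eWAT minus liver, in IR 4A (left) and WT (right) mice, by genome (purple mitochondrial, green nuclear) and complex, under TMM scaling. Filled circles passed an adjusted p of 0.05, open ones did not, the highest point is Cox6b2, kept by the low-count filter only through eWAT, black bars are medians and the dashed orange line is the median of all genes (0.12 in IR 4A, 0.19 in WT); under library totals the nuclear medians were 0.37 and 0.30.

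Tissue isoforms of complex IV and I set 1 group of eWAT libraries apart. Cox6b2, the testis form of the subunit that joins the complex IV dimer, had 1.82 to 10.8 CPM in eWAT IR 4A and 1.64 to 15.8 CPM in eWAT WT, against 0 to 0.319 CPM in liver IR 4A and 0 to 0.496 CPM in liver WT, on the scale common to both tissues. With 0 to 6 counts per liver library it passed the low-count filter only through eWAT. Its call between tissues is therefore not independent of that filter, and no fold change is given. On the scale within the tissue, its eWAT values were 2.79, 2.80, 15.6, 15.8 and 2.81 CPM in IR 4A and 11.9, 23.9, 4.49, 2.57 and 2.61 CPM in WT. The high libraries were IR 4A 3, IR 4A 4, WT 1 and WT 2, the 4 that were high in sperm markers. Cox8c, a testis isoform of complex IV, had 1.07, 1.23, 22.6, 31.4 and 0.196 CPM in IR 4A and 18.4, 64.8, 5.44, 0.352 and 1.64 CPM in WT, and Cox7b2, also of testis, had 0.573, 0.546, 7.59, 11.4 and 0.0653 CPM in IR 4A and 10.1, 26.7, 2.59, 0.0503 and 0.424 CPM in WT. Ndufb11b followed the same libraries, at 0.430, 0.273, 10.5, 15 and 0 CPM in IR 4A and 7.37, 24.5, 1.85, 0.201 and 0.667 CPM in WT. Cox8c, Cox7b2 and Ndufb11b are named after their values were seen; none of the 4 genes passed between the eWAT genotypes (log2 fold changes -0.19, -0.68, -0.98 and -0.40 for Cox6b2, Cox8c, Cox7b2 and Ndufb11b, with SE of 0.80 to 1.54). The widespread form Cox6b1 was not high in these libraries, with 149.99, 127, 114, 96.4 and 132 CPM in IR 4A and 114, 97.7, 129, 148 and 111 CPM in WT. IR 4A 3 and IR 4A 4 were the lowest in IR 4A and WT 2 the lowest in WT, while WT 1 lay above WT 5. The part of sperm RNA in the isoform values was not tested.

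**Figure D5:**
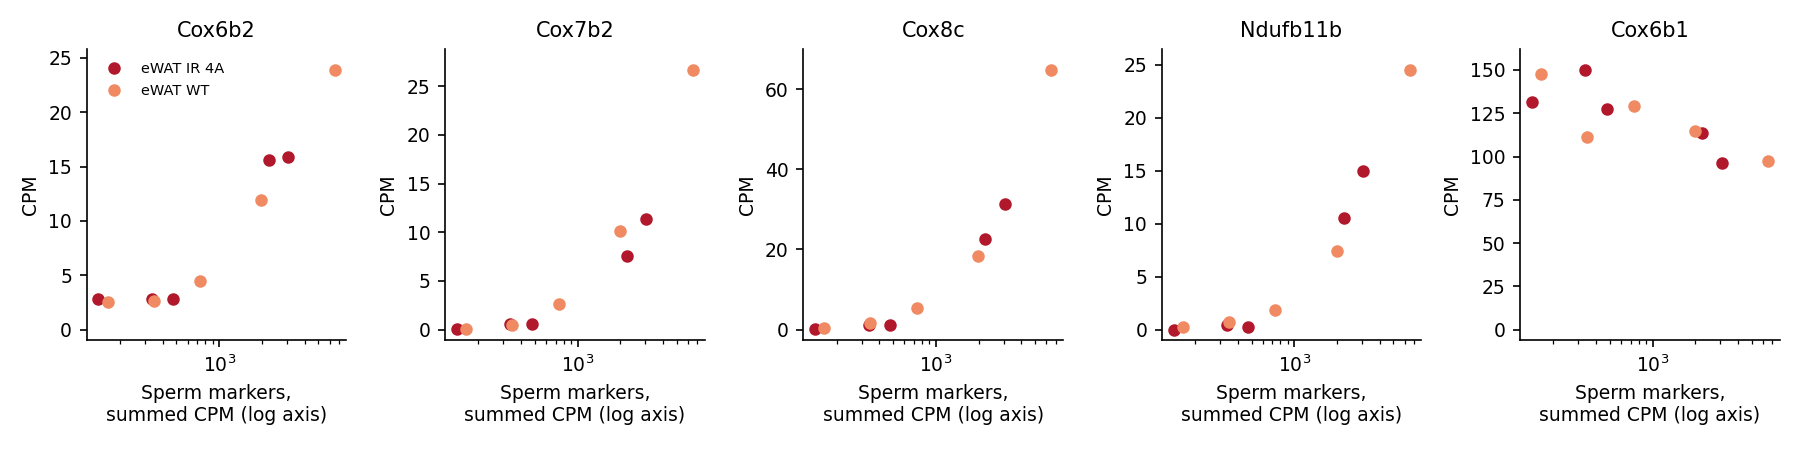
CPM of Cox6b2, Cox7b2, Cox8c, Ndufb11b and Cox6b1 (vertical axes) against the summed CPM of the 12 sperm markers (horizontal, log axis) in the 5 eWAT IR 4A and 5 eWAT WT libraries. The first 4 genes are highest in eWAT WT 2, where the sperm markers sum to 6508 CPM, and Cox6b1 is not.

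Other isoform pairs separated the tissues less. Ndufa4l2, a paralogue of Ndufa4 known to be induced by low oxygen, was higher in eWAT, with 5.45, 2.08, 3.88, 4.12 and 2.68 CPM in eWAT IR 4A and 1.04, 0.935, 1.66, 2.63 and 1.15 CPM in liver IR 4A (a log2 difference of 1.29, SE 0.35, edgeR adjusted p = 0.00260). In WT it had 4.39, 5.04, 3.64, 5.96 and 3.44 CPM in eWAT and 0.838, 1.91, 1.24, 0.597 and 2.07 CPM in liver (log2 fold change 1.74, SE 0.36, edgeR adjusted p = 0.000196). The groups overlapped in IR 4A and not in WT. Ndufa4 itself was lower in eWAT (-1.54 in IR 4A and -1.58 in WT), though not past the threshold under library totals. Cox8b, the heart, muscle and brown fat form, was listed for eWAT at 0.0600 to 1.003 CPM in IR 4A and 0.364 to 2.26 CPM in WT and was too low to test, while the widespread form Cox8a had 170.0 to 241 and 101 to 272 CPM. Cox7a1 had 0.614 to 1.86 CPM in eWAT IR 4A and 0.739 to 1.61 in eWAT WT, beside 59.2 to 73.4 and 55.5 to 64.4 CPM of Cox7a2. Ucp1, the uncoupling protein of brown fat, was at 0 to 0.205 CPM in eWAT IR 4A and 0 to 0.987 CPM in eWAT WT. The muscle form Cox6a2 fits the name pattern but was not among the members found in either tissue.

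Promoters of the genes that these results turn on are shown for comparison of their regulatory sequence, 250 bases before the start of each gene, 5′ to 3′ on the gene's strand, from RefSeq (GRCm38.p6); capitals mark a motif match. Atp5e (interaction, chr2:174464102-174464351, − strand) holds an ETS motif, the kind bound by GABPA, 102 bases before its start, read on the other strand. Atp5g1 (interaction, chr11:96075632-96075881, − strand) holds none of the motifs searched. Ndufs6 (tissue contrast, chr13:73328483-73328732, − strand) holds the motif of NRF1, a regulator of respiratory genes, 16 bases before its start, read on the other strand, and Cox6b2 (testis isoform, chr7:4753095-4753344, − strand) holds none.
Atp5e: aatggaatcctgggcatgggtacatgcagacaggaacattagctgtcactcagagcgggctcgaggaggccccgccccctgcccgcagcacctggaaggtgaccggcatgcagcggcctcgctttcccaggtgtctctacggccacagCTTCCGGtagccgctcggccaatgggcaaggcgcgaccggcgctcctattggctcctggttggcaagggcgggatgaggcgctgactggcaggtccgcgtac
Atp5g1: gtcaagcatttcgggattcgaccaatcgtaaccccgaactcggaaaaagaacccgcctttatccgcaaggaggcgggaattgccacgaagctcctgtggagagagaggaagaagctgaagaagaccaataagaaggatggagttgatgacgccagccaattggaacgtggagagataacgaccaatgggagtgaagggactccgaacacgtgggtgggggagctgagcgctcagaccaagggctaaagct
Ndufs6: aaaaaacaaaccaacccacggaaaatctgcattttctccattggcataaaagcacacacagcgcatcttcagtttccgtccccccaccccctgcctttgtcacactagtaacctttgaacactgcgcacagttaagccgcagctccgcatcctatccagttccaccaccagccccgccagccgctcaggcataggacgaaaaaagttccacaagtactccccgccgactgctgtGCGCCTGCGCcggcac
Cox6b2: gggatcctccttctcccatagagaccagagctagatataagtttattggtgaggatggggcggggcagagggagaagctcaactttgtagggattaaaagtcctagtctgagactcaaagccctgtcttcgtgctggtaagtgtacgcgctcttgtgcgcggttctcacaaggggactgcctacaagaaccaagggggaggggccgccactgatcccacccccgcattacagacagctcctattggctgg

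Windows were found for 66 of 79 nuclear members, and both strands were searched, any motif overlap allowed. The NRF1 motif (GCGCA, any base, then GCGC) was in 10 of 66 (15.2%), beside 7.72% of 11608 genes tested in both tissues and 3.86% of all 27025 windows. It was in 6 of 32 windows of complex I, 0 of 5 of complex III, 1 of 14 of complex IV and 3 of 15 of complex V. The ETS motif (CCGGAAG) was in 10 members (15.2%), beside 12.9% of tested genes and 7.05% of windows. The YY1 motif (AANATGGCG) was in 1 (1.52%), beside 1.95% and 1.12%, and the ERR alpha motif (TNAAGGTCA) in 2 (3.03%), beside 0.715% and 1.14%. At least 1 of the 4 was in 20 members (30.3%), beside 21.3% of tested genes and 12.2% of windows. A match describes letters and not a bound site, and no match says only that these letters are not in the window.

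Among other genes of the pathway, none of 12 lists had a member past the threshold between genotypes in either tissue (edgeR adjusted p of 0.05). Of all genes, 0.0121% passed in eWAT and 0.00805% in liver. In the tissue contrast all 4 subunits of complex II, succinate dehydrogenase, were lower in eWAT, with 3 of them still lower in IR 4A and 2 in WT under library totals, where Sdha in WT turned positive: Sdha -1.85, Sdhb -2.32, Sdhc -1.62 and Sdhd -1.77 in IR 4A and -1.40, -1.91, -1.51 and -1.74 in WT. The larger lists turned with the scaling, as did all genes. Of all genes, 34.8% were lower and 40.5% higher in IR 4A, and 33.9% and 43.2% in WT. Under library totals 10.8% were lower and 79.7% higher in IR 4A, and 9.64% and 82.8% in WT. Of 78 mitochondrial ribosome genes 65 were lower and 4 higher in IR 4A, and 68 and 1 in WT, but under library totals 5 were lower and 61 higher in IR 4A and 6 and 62 in WT. Assembly factors were lower in 14 of 17 cases for complex I, 3 of 6 for complex III, 18 of 24 for complex IV and 3 of 4 for complex V in IR 4A, with 3 higher in all, while library totals gave 8 lower and 35 higher over the 4 lists. In WT the same lists had 16, 4, 20 and 3 lower and 1 higher, and library totals gave 8 lower and 39 higher. Of 11 genes that replicate mitochondrial DNA, 4 were higher and 4 lower in IR 4A and 4 and 5 in WT, not far from the shares of all genes. Under library totals 9 were higher and 0 lower in each, where most of all genes were higher.

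Genes that transcribe mitochondrial DNA or process its RNA were lower in eWAT in 21 of 26 cases in IR 4A and 20 in WT, with 1 and 0 higher. Of all genes, 34.8% and 33.9% were lower. Library totals gave 4 lower and 15 higher in IR 4A and 1 and 17 in WT, where 79.7% and 82.8% of all genes were higher. Lrpprc, which stabilises mitochondrial messages and is named after its values were seen, had -2.94 in IR 4A and -2.73 in WT. Tfam, the packaging and transcription factor of mitochondrial DNA, had -1.40 and -1.08, and Polrmt, its RNA polymerase, -0.79 and -1.07, but under library totals Polrmt was positive in both genotypes and Tfam passed in neither. Ppargc1a, the coactivator of mitochondrial biogenesis, had -2.47 and -2.0, Esrra (ERR alpha) -0.77 and -0.83, Gabpa -1.82 and -1.14, and Nrf1 0.10 and -0.01 without passing. Under library totals Esrra turned positive in both genotypes and Gabpa in WT, Nrf1 passed as higher in both, and Ppargc1a no longer passed in WT. Outside the name pattern, Cyc1 (a cytochrome of complex III) and Cycs (cytochrome c) had -1.82 and -0.79 in IR 4A and -1.81 and -0.93 in WT, Cox4i1 (a regulatory complex IV subunit) had -0.27 and -0.41, Cycs and Cox4i1 being positive in both under library totals, and Atpif1, the inhibitor of ATP synthase, was higher in eWAT with 2.02 and 1.83.

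In the interaction, 0.735% of all genes were called higher and 1.67% lower. Higher were 4 genes of the mitochondrial ribosome (Mrpl37 0.81, Mrpl53 0.58, Mrpl57 0.55 and Mrpl43 0.44, named after their values were seen). Under library totals Mrpl37 alone of these passed. Gabpa, the ETS factor named above, was lower with -0.68 (edgeR adjusted p = 0.0207). With the replicate block 0 of 14696 genes passed, so these calls were lost too. Gabpa had log2 fold changes of -0.40 in eWAT and 0.26 in liver, neither past the threshold (edgeR adjusted p = 0.215 and 0.170).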

How the data were processed

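RNA of liver and eWAT was sequenced in 20 libraries, 5 per group, after poly-A capture with a stranded kit, per the labels' protocols. Estimated counts per gene were made by the authors with Salmon 1.8.0 on GRCm39, per the submitters' processing notes, and the deposited values are whole numbers. The authors' deposited log2 tables of normalized values were not used. The authors' deposited DESeq2 (1.32.0) tables, of which the mean signal (size-factor-scaled counts over both genotypes), log2 fold changes and p-values were read, give values only where named as theirs. How strand was used in counting is not given in the sources used here.

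Entries with a repeated ID were left out (83 in liver, 208 in eWAT). The low-count filter was edgeR's filterByExpr (10 counts at least, and 15 in total); 12421 liver genes, 16476 eWAT genes and 14696 genes for contrasts between tissues passed it, of which 86, 91 and 88 were members. The main test was edgeR 4.0.16 (quasi-likelihood, TMM scaling, R 4.3.3) with p adjusted by Benjamini-Hochberg over all genes, fitted within each tissue and, for tissue and interaction contrasts, over all 20 libraries. Common biological coefficients of variation were 0.187 in liver, 0.512 in eWAT and 0.301 jointly. Simulated data held 200 changed genes, drawn only from genes of higher mean count, and no other differences. The liver fit recovered 38% of genes changed by 0.5 and 94% of those changed by 1 (log2). The eWAT fit recovered 0% and 9%, and the WT tissue contrast 21% and 72%. The changed genes were not picked from the members, so these shares do not give the recovery for members. In the data 77.1% of genes passed that WT contrast, so its simulated recovery does not describe the real one. No 2 libraries of the same group agreed within sampling noise (lowest chi-square per degree of freedom 12.5). Libraries of different groups were not compared in this way.

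The members and lists were chosen with earlier results of these data known. Genes named were the 13 mitochondrial genes, members past an adjusted p of 0.05 within a tissue, the 2 nuclear members of each complex with the smallest p in each genotype comparison, the 5 highest and 5 lowest in each tissue contrast, the 3 smallest p of the interaction, fixed isoform sets and regulators; others are marked. Replicate numbers did not visibly pair liver with eWAT libraries of the same genotype (correlation of deviations -0.10 to 0.04). Between WT and IR 4A libraries of the same number the correlation was -0.07 to 0.08 in liver and -0.73 to 0.67 in eWAT. DESeq2 1.42.0, limma 3.58.1 (voom with sample weights), other scalings, no filter, a fit of all libraries, a replicate block and leaving out single libraries were tried. Library totals, eWAT without the 4 libraries high in sperm markers and liver without WT 1 and WT 3 were added after the data were seen. Transcript lengths were those of GENCODE vM21 (GRCm38), and copies were found with blastn. Lengths, positions and promoters are on GRCm38, not on the build of the counts.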

Additional observations from a re-analysis of the deposited data

Results flagged for a closer look

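Of 159 groups of 5 libraries tested for 1 library far from the other 4, 13 held one, and chance gives about 1 in 20. In eWAT WT, 6 of these were values of WT 4, the library lowest in epididymis markers: mt-Atp6 14348 CPM, mt-Atp8 3201 CPM, mt-Co1 31117 CPM, mt-Co3 7145 CPM, Uqcrb 143 CPM and Uqcrc2 190.1 CPM. Cox8c was at 64.8 CPM in eWAT WT 2, the library highest in sperm markers. In liver IR 4A, library 2 stood apart for Atp5g1 (47.2 CPM), Cox6c (85.0 CPM) and Uqcrh (94.7 CPM), and library 5 for Uqcrb (152 CPM). In liver WT, mt-Atp8 was at 2912 CPM in WT 3 and mt-Nd6 at 89.4 CPM in WT 4, the library high in Rn18s.

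In edgeR 2 of 88 members passed the test of a different IR 4A effect in eWAT and in liver, by 0.56 on the log2 scale for Atp5e and 0.78 for Atp5g1, a share near the 2.41% of all genes that passed. The 2 calls were lost in 13 and 17 of 20 fits that each left out 1 library, and under the replicate block (edgeR adjusted p = 0.133 and 0.110).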

How the results depend on the processing

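Between genotypes, within 1 tissue, edgeR called no member in liver or eWAT under other scalings, without the low-count filter, with the replicate block or with single libraries left out. In liver, library totals called 3.11% of all genes, against 0.00805% in the main fit. Without liver IR 4A 1, 80 of 12556 genes were higher and 63 lower. In eWAT the other scalings called 0.00607% to 0.0121% of all genes. In eWAT, DESeq2 called 9 members (7.31% of all genes) and the fit of all 20 libraries 5 (2.01%), and voom with sample weights gave a nuclear median of 0.15. In liver the nuclear median under library totals was 0.15. Leaving out single libraries gave 0 calls throughout, mitochondrial medians of 0.04 to 0.23 in eWAT and -0.12 to -0.04 in liver, and nuclear medians of 0.03 to 0.14 and -0.04 to 0.03.

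Between tissues, library totals gave 54 member calls in WT, where 82.8% of all genes were called higher and 9.64% lower. Mitochondrial medians were -0.25 in IR 4A and -0.29 in WT, and nuclear medians 0.37 and 0.30, the nuclear ones opposite to TMM. Among the genes named by rule for the tissue contrasts, those that passed in the opposite direction under library totals were Atp5g1 (0.79), Cox4i1 (1.17), Cox6a1 (0.37), Cox6b1 (0.44), Cox7a2 (0.46), Esrra (0.65) and Polrmt (0.65) in IR 4A, and Cox4i1 (1.07), Cox6b1 (0.43), Cox7a2 (0.36), Esrra (0.65), Gabpa (0.35) and Polrmt (0.43) in WT. Without mt-Nd6, mt-Atp8 and mt-Nd4l the mitochondrial median in IR 4A was -1.59. Leaving out single libraries gave 80 to 82 member calls in IR 4A and 84 to 85 in WT, mitochondrial medians of -1.74 to -1.64 and -2.06 to -1.71, and nuclear medians of -1.12 to -1.04 and -1.42 to -1.14, the lowest WT values being without eWAT WT 4. With all libraries 75.3% of all genes passed in IR 4A and 77.1% in WT.

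In the interaction, 0 members passed under library totals (4.97% of all genes), 1 without the filter (2.01%), 11 by DESeq2 (8.66%), 8 by voom (4.27%), 0 with the replicate block (0 genes; edgeR adjusted p = 0.133 for Atp5e and 0.110 for Atp5g1) and 0 to 5 with single libraries left out. Beyond library totals, where the change of scale is by construction, the cause was not tested. Replicate numbers did not visibly pair liver with eWAT libraries. The block gave 0 member calls in liver and eWAT, and between tissues 80 in IR 4A and 84 in WT. Of all 14696 genes it called 5704 higher and 4977 lower in IR 4A, and 6031 and 4853 in WT. Over the named genes and all settings, 36 interaction values, 32 tissue values in IR 4A and 15 in WT lost their call, and 5, 5 and 8 gained one; 12 eWAT and 2 liver genotype values, over 7 and 2 genes, gained one. The eWAT libraries had a common biological coefficient of variation of 0.512, against 0.187 in liver. The part of that spread in the calls was not tested.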
